A study of Mus musculus with 16 samples.

Results

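Bidirectional promoter regions are stretches of accessible chromatin that lie between, or close to, the starts of 2 genes transcribed away from each other on opposite strands. They were taken from the merged list of ATAC-seq regions of mouse embryonic stem (ES) cells by position alone. A region was a member if it lay on an autosome, if its centre fell in a promoter on each of the 2 strands, a promoter being the stretch that begins 1000 bp before an annotated transcription start (GENCODE M21, mm10) and ends 100 bp after it, and if the nearest starts on the strands pointed away from each other and were 1 to 1000 bp apart. This gave 1966 members among 81132 regions in all, or 2.48% (95% Wilson interval 2.37 to 2.59%) of the 79278 autosomal regions. They made up 11.9% (11.4 to 12.4%) of the 16516 autosomal regions centred in any promoter. The count depended on the annotation, with 984 members (7.00% of promoter-centred regions) when the transcripts of protein-coding genes alone were used and 1047 (9.84%) with 1 start per gene.

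The study asked how varying levels of SOX2 and OCT4, transcription factors that maintain pluripotency, affect the differentiation of ES cells into neuroectoderm and mesendoderm. ATAC-seq, which marks open chromatin by the insertion of adapters with the transposase Tn5, was performed on SBROS cells, a line derived from CGR8 ES cells in which both Sox2 alleles carry a SNAP-tag and 1 Oct4 allele carries a HALO-tag, next to the reporters SOX1-P2A-eGFP and BRA-P2A-mCherry. Cells in G1 phase were sorted into SHOH (SOX2 high, OCT4 high), SHOL (SOX2 high, OCT4 low), SLOH (SOX2 low, OCT4 high) and SLOL (SOX2 low, OCT4 low), with 3 replicates of each and 12 libraries in all. All cells grew in serum with LIF and the inhibitors CHIR99021 at 3 µM and PD184352 at 0.8 µM, and SBROS is a single knock-in line. The list pools the peaks of all 12 libraries and holds coordinates without a level, so that no value per replicate or population can be given, the depth is unknown from it, and the intervals below cover counting error only.

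In mammalian genomes many genes start head to head with a neighbour, and the short stretch between the starts can serve as the promoter of both. Such promoters are known for high GC content, CpG islands and few TATA boxes, and they are frequent among genes that every cell uses, such as those for DNA repair, mitochondrial function and protein folding. Many active promoters with a single annotated gene also give rise to a noncoding transcript in the opposite direction, so that a pair may consist of a protein-coding gene and a long noncoding RNA.

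The sequence between the starts is shown first for pairs long used as textbook examples. The list of 17 includes Acat2 and Tcp1, which are not head to head in this annotation (below). Of the 17 pairs, 12 had a member region, and 7 of those with a searched word between the starts are printed here. The words searched in them were CCGGAAGT (ETS factors), GCATGCGC (NRF1), AAGATGGCG (YY1), CCAAT (the CCAAT box, bound by NFY) and TGACGTCA (CRE, bound by CREB and ATF factors), on both strands. Capitals mark these words. In these 7 windows every match was a CCAAT box, read as ATTGG where it lay on the minus strand. Each sequence is the plus strand of GRCm38 from 5′ to 3′, from the RefSeq assembly, and covers both starts with 20 bp on either side or, for longer pairs, the 300 bp that held the most words. Wrap53 (a telomerase factor) and Trp53 (the tumour suppressor p53) are at chr11:69580235-69580422, Brca1 (DNA repair) and Nbr1 (an autophagy receptor) at chr11:101552037-101552336, Atm (the DNA damage kinase) and Npat (a regulator of histone transcription) at chr9:53536744-53537043, Ppat and Paics (both enzymes of purine synthesis) at chr5:76951145-76951402, Mcm4 (replicative helicase) and Prkdc (a kinase of DNA end joining) at chr16:15637462-15637761, Mrps12 (mitochondrial ribosome) and Sars2 (mitochondrial seryl-tRNA synthetase) at chr7:28741800-28742028, and Gart (purine synthesis) and Son (a splicing factor) at chr16:91647001-91647300.
Wrap53-Trp53: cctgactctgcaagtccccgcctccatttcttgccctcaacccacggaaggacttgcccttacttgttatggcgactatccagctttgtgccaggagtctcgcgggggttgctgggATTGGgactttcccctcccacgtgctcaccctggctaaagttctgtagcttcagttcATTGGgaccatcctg
Brca1-Nbr1: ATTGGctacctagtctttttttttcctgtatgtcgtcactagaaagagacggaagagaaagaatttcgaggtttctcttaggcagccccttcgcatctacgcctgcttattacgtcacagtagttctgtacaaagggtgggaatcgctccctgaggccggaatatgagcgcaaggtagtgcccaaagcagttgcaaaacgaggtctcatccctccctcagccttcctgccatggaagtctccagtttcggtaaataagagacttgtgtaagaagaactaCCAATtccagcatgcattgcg
Atm-Npat: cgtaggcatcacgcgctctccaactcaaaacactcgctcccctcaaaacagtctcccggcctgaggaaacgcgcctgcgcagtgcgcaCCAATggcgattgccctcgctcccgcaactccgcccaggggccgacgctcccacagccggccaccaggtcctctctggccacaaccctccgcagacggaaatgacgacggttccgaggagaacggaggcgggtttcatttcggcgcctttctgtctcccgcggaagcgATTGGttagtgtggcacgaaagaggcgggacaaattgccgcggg
Ppat-Paics: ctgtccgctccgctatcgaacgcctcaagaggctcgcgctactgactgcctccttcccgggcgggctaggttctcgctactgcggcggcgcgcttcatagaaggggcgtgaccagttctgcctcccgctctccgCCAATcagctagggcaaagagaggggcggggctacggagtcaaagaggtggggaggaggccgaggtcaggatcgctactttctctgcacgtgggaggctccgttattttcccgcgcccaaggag
Mcm4-Prkdc: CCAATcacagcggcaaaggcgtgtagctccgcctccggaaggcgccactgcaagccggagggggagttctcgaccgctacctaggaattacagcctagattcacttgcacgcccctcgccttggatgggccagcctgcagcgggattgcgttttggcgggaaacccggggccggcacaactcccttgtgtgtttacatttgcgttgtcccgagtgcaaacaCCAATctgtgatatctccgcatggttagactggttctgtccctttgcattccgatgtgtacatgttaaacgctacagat
Mrps12-Sars2: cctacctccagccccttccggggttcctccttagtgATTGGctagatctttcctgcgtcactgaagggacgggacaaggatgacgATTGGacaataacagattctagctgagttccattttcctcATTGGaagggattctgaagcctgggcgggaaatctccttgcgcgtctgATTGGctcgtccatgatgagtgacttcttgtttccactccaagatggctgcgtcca
Gart-Son: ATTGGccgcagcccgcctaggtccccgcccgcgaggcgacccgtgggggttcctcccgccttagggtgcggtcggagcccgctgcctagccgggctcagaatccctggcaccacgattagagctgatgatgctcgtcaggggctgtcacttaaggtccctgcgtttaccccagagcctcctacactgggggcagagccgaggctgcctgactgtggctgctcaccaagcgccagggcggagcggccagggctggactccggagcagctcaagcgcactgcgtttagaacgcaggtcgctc

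For the ETS word, which was more frequent in members than in one-direction promoter regions on every autosome (below), the sequence is shown from 2 of the 5 regions with the most copies. Erh (a conserved nuclear protein) and Slc39a9 (a zinc transporter) are at chr12:80643828-80643903, and Zfp787 (a zinc finger protein) and the noncoding Gm36371 at chr7:6155942-6156241. Capitals mark the ETS word alone, which reads ACTTCCGG on the minus strand.
Erh-Slc39a9: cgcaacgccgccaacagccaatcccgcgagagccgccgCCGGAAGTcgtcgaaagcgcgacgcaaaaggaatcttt
Zfp787-Gm36371: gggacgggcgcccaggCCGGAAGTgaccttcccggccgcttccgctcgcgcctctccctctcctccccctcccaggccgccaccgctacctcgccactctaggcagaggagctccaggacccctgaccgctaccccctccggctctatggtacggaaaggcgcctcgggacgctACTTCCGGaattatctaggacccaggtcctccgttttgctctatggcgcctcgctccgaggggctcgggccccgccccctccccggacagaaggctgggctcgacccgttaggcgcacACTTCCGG

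Some histone pairs carried another word, ATGCAAAT, the octamer bound by POU factors such as OCT1 and OCT4. It is in capitals, as ATTTGCAT where it lies on the minus strand, between Hist1h2ba and Hist1h2aa at chr13:23934160-23934459 and between Hist2h2ac and Hist2h2be at chr3:96220860-96221139.
Hist1h2ba-Hist1h2aa: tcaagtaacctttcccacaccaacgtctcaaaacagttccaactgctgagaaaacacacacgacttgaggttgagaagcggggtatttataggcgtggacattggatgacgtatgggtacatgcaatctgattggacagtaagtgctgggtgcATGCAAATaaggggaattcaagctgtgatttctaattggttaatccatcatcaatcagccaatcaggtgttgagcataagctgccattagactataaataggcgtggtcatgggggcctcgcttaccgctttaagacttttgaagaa
Hist2h2ac-Hist2h2be: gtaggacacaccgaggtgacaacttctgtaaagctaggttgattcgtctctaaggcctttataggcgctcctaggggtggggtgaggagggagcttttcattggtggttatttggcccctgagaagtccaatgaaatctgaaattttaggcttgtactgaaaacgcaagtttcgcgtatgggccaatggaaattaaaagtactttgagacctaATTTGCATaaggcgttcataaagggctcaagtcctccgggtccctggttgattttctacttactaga

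A protein-coding gene was on at least 1 side of 1922 of the 1966 members. In 980 members, or 49.8% (95% Wilson interval 47.6 to 52.1%), both nearest genes were protein-coding, and in 780 (39.7%, 37.5 to 41.9%) a protein-coding gene was paired with a long noncoding RNA. A further 74 paired a protein-coding gene with a locus annotated as still to be experimentally tested (TEC), 49 with a small RNA and 39 with a pseudogene. Of the 3932 starts that the members paired, 2902 belonged to protein-coding genes. The annotated classes of long noncoding RNA with the most paired starts were antisense (306), long intergenic (252), processed transcript (161) and the class named for bidirectional promoters (119). The members covered 1898 gene pairs and 3784 genes, 2787 of them protein-coding.

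The paired starts were close together. The median distance was 188.5 bp (95% order-statistic interval 181 to 198 bp), the central part of the distribution ran from 107 to 358.8 bp (25th to 75th percentile), and the extremes were 1 and 998 bp. Starts lay up to 100 bp apart in 451 members (22.9%), over 100 and up to 200 bp in 585 (29.8%), over 200 and up to 300 bp in 331 (16.8%), over 300 and up to 500 bp in 274 (13.9%) and over 500 bp in 325 (16.5%). The distance differed little between the main kinds of pair, with a median of 176 bp (167 to 186 bp) for coding pairs and 194 bp (179 to 213 bp) for coding and long noncoding pairs, and among the pairs with a protein-coding gene it was longest where the partner was a small RNA, at 497 bp (359 to 654 bp). At the limit of the rule, 50 members had starts over 900 bp apart, with a median width of 488.5 bp, and 3 of them contained both starts. Just outside it, 25 promoter regions had divergent starts over 1000 and up to 1100 bp apart, with a median width of 353 bp, and 1 contained both.

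Bidirectional promoter regions were wide. Their median width was 813 bp (796 to 828 bp, n = 1966), against 566 bp (559 to 574 bp, n = 14373) for one-direction promoter regions, whose centre fell in promoters of a single strand, and 320 bp (318 to 322 bp, n = 62762) for autosomal regions outside promoters. The difference of 247 bp from one-direction promoter regions had the same sign in 19 of 19 autosomes, where it averaged 242.5 ± 44.8 bp (SD over autosomes). Members over 1000 bp wide numbered 514, or 26.1% (24.2 to 28.1%), against 11.6% (11.1 to 12.1%) of one-direction promoter regions. In the CpG-rich coding subset of the latter the share was 17.4% (16.5 to 18.2%). Members under 200 bp numbered 65, or 3.31% (2.60 to 4.19%), against 9.86% (9.38 to 10.4%) of one-direction promoter regions and a similar 4.00% (3.58 to 4.46%) of the CpG-rich coding subset described next. Part of the one-direction group lies at promoters poor in CpG. Among one-direction promoter regions of protein-coding genes with a GC content of at least 50% and a ratio of observed to expected CpG of at least 0.6, the median width was 714 bp (706 to 722 bp, n = 7726), closer to that of the members but still below it.

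**Figure D1:**
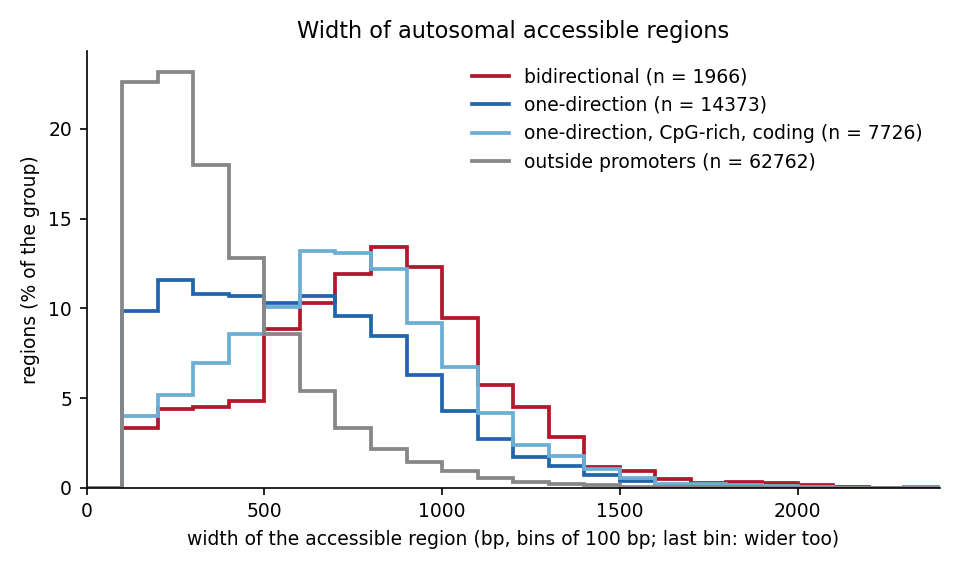
Distribution of region width in bins of 100 bp (x axis, bp) as a share of each group (y axis, %) for bidirectional, one-direction, CpG-rich coding one-direction promoter regions and autosomal regions outside promoters. The members, with a median of 813 bp, lie to the right of the one-direction promoter regions (566 bp), of the CpG-rich subset (714 bp) and of the regions outside promoters (320 bp).

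Width also varied among the members by the kind of pair. It was 858.5 bp (838 to 878 bp) in the median for coding pairs and 758 bp (730 to 793 bp) for coding and long noncoding pairs. Across members, width was almost unrelated to the distance between the starts (Pearson r = -0.08, Spearman rho = 0.01, n = 1966 regions, as a description). The medians by distance rose from 771 bp (740 to 799 bp) for starts within 100 bp to 946.5 bp (887 to 984 bp) for over 300 and up to 500 bp, while the median was 634 bp (546 to 711 bp) for starts over 500 bp apart.

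The rule fixes where the centre of a region lies, not how far the region reaches. Both paired starts lay inside the accessible region in 1612 members, or 82.0% (80.2 to 83.6%). In 302 (15.4%) the region contained 1 of the starts and in 52 (2.64%) neither. The share with both starts fell with the distance between them, from 99.1% (97.7 to 99.7%) at up to 100 bp, through 96.2% (94.4 to 97.5%), 88.8% (85.0 to 91.8%) and 78.5% (73.2 to 82.9%) in the next bins, to 28.6% (24.0 to 33.8%) above 500 bp. It was 87.2% (85.0 to 89.2%) for coding pairs and 79.7% (76.8 to 82.4%) for coding and long noncoding pairs. Regions with both starts reached a median of 333 bp (325 to 340 bp) past each start into its gene. One-direction promoter regions that contained their nearest start reached 283 bp (279 to 288 bp, n = 10550) into the gene and 366 bp (362 to 370 bp) upstream of the start, and in the CpG-rich coding subset they reached 337 bp (331 to 342 bp, n = 6770) into the gene. These values hold for regions chosen for containing their starts. Over all 1966 members the median reach was 303 bp (291 to 312 bp) into the minus-strand gene and 290.5 bp (282 to 300 bp) into the plus-strand gene.

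**Figure D2:**
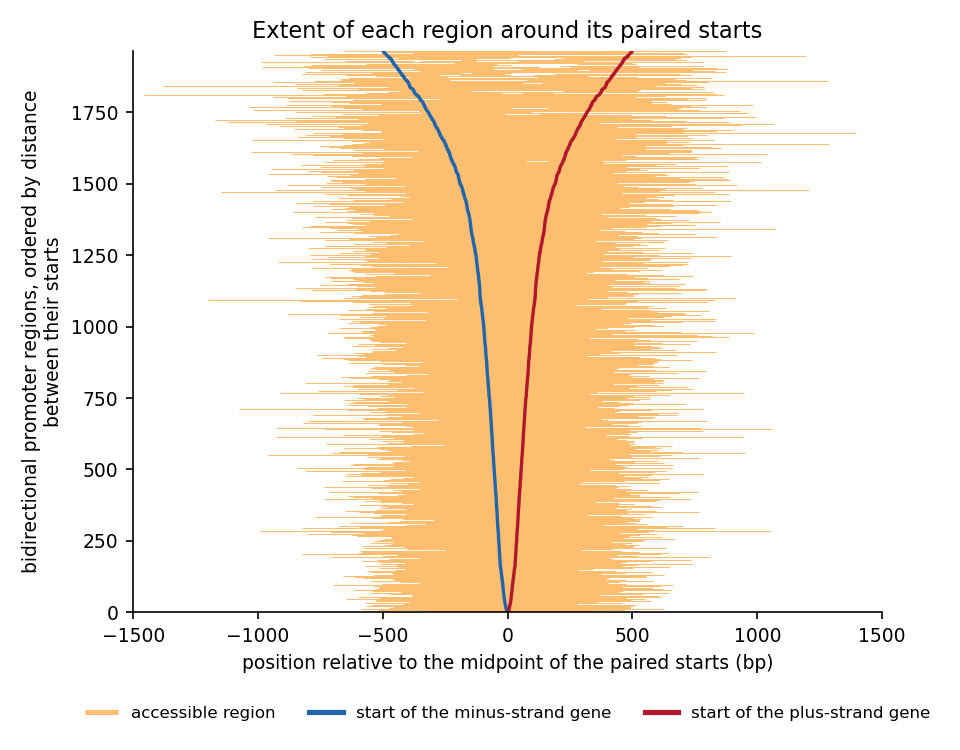
Each of the 1966 bidirectional promoter regions as a horizontal line from its left to its right end, relative to the midpoint of its paired starts (x axis, bp), ordered by the distance between the starts (y axis, rank). The starts of the minus-strand and plus-strand genes, drawn as lines, stay inside most regions up to a distance of 500 bp, and 93 of the 325 regions with starts further apart contain both.

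Few pairs were split over several regions. Of the 1898 pairs, 1832 had 1 member region, 64 had 2 and 2 had 3. The regions of the 66 pairs with several had a median distance of 615 bp (454 to 664 bp, n = 134) between starts and a median width of 412.5 bp (316 to 500 bp), against 183 bp (175 to 190 bp) and 832 bp (815 to 849 bp) for pairs with 1 region. The rule itself gives far starts more room for several member regions, so the difference in distance is partly set by it. The pairs with 3 regions were Wrn (a RecQ helicase) with Purg (a purine-rich element binding protein) and Zbtb25 with Zbtb1 (both BTB zinc finger proteins). At Wrn and Purg the regions were 775, 150 and 247 bp wide, the first over the start of Wrn, the last over the start of Purg and the middle region over neither. Zbtb25 and Zbtb1 had the same arrangement, and its middle region was 163 bp wide and its last 615 bp.

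In pairs of a protein-coding gene and a long noncoding RNA the region lay nearer to the coding side. Its centre was closer to the coding start in 510 of 780 members, or 65.4% (62.0 to 68.6%). Each paired start was the one nearest the centre among all annotated transcripts. A gene with more annotated starts can therefore come out nearer, and the effect of this was not tested. The coding start was inside the region in 708 (90.8%, 88.5 to 92.6%) and the noncoding start in 666 (85.4%, 82.7 to 87.7%). Where both starts were inside, the region reached further into the coding gene in 411 of 622 members (66.1%, 62.3 to 69.7%), with a median reach of 356.5 bp into the coding gene and 264.5 bp into the noncoding one. This is the same comparison in a subset, not a further result. A region that contains both starts always reaches further past the start nearer to its centre.

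The annotation was then read in the other direction, from pairs to regions. GENCODE M21 held 3256 autosomal gene pairs with divergent starts 1 to 1000 bp apart at their closest. Of these, 1898 (58.3%) were the nearest pair of a member, a further 513 had another region over at least 1 of the closest starts, and 845 had none. The share with any region was 74.0% (72.5 to 75.5%) overall. It was 91.8% (90.2 to 93.3%) for the 1201 coding pairs, of which 98 lacked a region, and 73.6% (71.1 to 75.9%) for the 1339 coding and long noncoding pairs. By contrast, it was 24.5% (17.5 to 33.4%) for the 110 pairs of long noncoding RNAs and 2.63% (0.725 to 9.10%) for the 76 pairs of pseudogenes. Among coding pairs it was 94.3% (92.1 to 95.9%) with starts within 100 bp and 79.6% (70.6 to 86.4%) above 500 bp. Counted by gene, 2179 of 2350 autosomal protein-coding genes with a divergent coding partner had a region over a start (92.7%, 91.6 to 93.7%), against 1294 of 1559 with a divergent partner of another class (83.0%, 81.1 to 84.8%) and 9553 of 16898 without a divergent partner (56.5%, 55.8 to 57.3%). These groups were not matched for the kind of gene. Olfactory receptors, of which 10 of 1128 had a promoter region, were not left out.

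The sequence at the centre of the members was rich in CpG. To keep width out of the comparison, a window of 300 bp at the centre of each region was used. The median GC content was 65.0% (64.3 to 65.0%) in members and 62.3% (62.0 to 62.3%) in one-direction promoter regions, and the median ratio of observed to expected CpG was 0.845 (0.835 to 0.855) and 0.696 (0.689 to 0.703). The CpG ratio was higher in members in 19 of 19 autosomes and the GC content in 18. A GC content of at least 50% together with a CpG ratio of at least 0.6 was found in 84.8% (83.1 to 86.3%) of members, 59.1% (58.3 to 59.9%) of one-direction promoter regions and 9.43% (9.20 to 9.66%) of regions outside promoters. The CpG-rich coding subset, chosen for these properties, had a median GC content above that of the members and a CpG ratio about equal to theirs (difference 0.00580, interval -0.00790 to 0.0200). With transcripts of protein-coding genes alone, the difference in GC content was 0.333 points (-0.667 to 1.00), so that the higher GC content of the members was not seen there. Interspersed repeats and other masked bases made up a mean of 5.46% of a member, 8.81% of a one-direction promoter region and 5.74% of a region of the CpG-rich coding subset, close to the members, and 2 members consisted of masked bases for 50% or more of their length.

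Exact words of 11 textbook promoter motifs were counted on both strands in the same windows. Besides those above they were GGGGCGGGG (SP1), TTCCCGCC (E2F), ACTACAATT (ZNF143), ATGCAAAT (the octamer), TATAAA (known as the TATA box) and, for SOX factors, either CCATTGT or the same word with thymine for its adenine. A match is only the presence of the letters. Windows of members were centred in promoters of both strands, those of one-direction regions in promoters of the plus or minus strand alone. How far this sets the differences between the groups was not tested for any word. The ETS word was present in 202 members, or 10.3% (9.01 to 11.7%), and in 4.54% (4.21 to 4.89%) of one-direction promoter regions, a difference of 5.74 percentage points (95% Newcombe interval 4.42 to 7.20) with the same sign in 19 of 19 autosomes. It was in 6.80% (6.26 to 7.38%) of the CpG-rich coding subset, so that a difference of 3.48 points (2.09 to 5.00) was also seen there. These are shares of windows, and ETS words per promoter were not compared between the groups. Of all windows from 250 bp before to 50 bp after the start of an autosomal protein-coding gene, 4.80% held the ETS word. The CCAAT box was in 38.9% (36.7 to 41.0%) of members, 31.6% (30.8 to 32.3%) of one-direction promoter regions and 30.1% (29.1 to 31.1%) of the CpG-rich coding subset, with differences of 7.28 points (5.02 to 9.58) and 8.78 points (6.41 to 11.2). In the windows at all protein-coding starts its share was 38.6%, about that of the members.

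Other words were more frequent in members than in one-direction promoter regions but not, or less clearly, than in the CpG-rich coding subset. The NRF1 word was in 5.29% (4.38 to 6.37%) of members against 3.08% (2.81 to 3.38%), the YY1 word in 3.81% (3.05 to 4.76%) against 2.19%, the CRE in 3.66% (2.92 to 4.59%) against 2.00% (1.78 to 2.24%) and the E2F word in 5.14% (4.25 to 6.20%) against 3.49%. In the CpG-rich coding subset these shares were 4.50%, 3.39%, 3.00% and 4.75%, and the interval of each difference from the members included 0. With transcripts of protein-coding genes alone, the differences from one-direction promoter regions for E2F (0.993 points, -0.236 to 2.56) and SP1 (1.50 points, -0.940 to 4.16) also had intervals that included 0. The SP1 word was in 19.7% of members, above the 15.8% of one-direction promoter regions and below the 22.3% of the CpG-rich coding subset. The ZNF143 word was rare, in 10 members. In all protein-coding promoter windows the shares were 3.45% for NRF1, 1.70% for YY1, 2.43% for CRE, 2.97% for E2F, 14.8% for SP1 and 0.524% for ZNF143.

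In the central window, TATA and SOX words were less frequent in members than in one-direction promoter regions. Against the CpG-rich coding subset the TATA share was slightly higher (0.473 points, -0.327 to 1.42) and the SOX share lower. Both of these intervals included 0. TATAAA was in 3.26% (2.56 to 4.14%) against 5.32% (4.97 to 5.70%) of one-direction promoter regions, lower in 16 of 19 autosomes, and in 2.78% of the CpG-rich coding subset. The interval of its difference from one-direction promoter regions included 0 in the whole region (-0.901 points, -2.21 to 0.544) and with transcripts of protein-coding genes alone (-1.09 points, -2.12 to 0.269). At its usual place, 35 to 22 bp upstream of a start and on the strand of the gene, it was present at 9 of the 3932 paired starts, or 0.229% (0.120 to 0.434%), against 0.724% (0.598 to 0.876%) of the nearest starts of one-direction promoter regions and 0.699% (0.536 to 0.911%) of those of the CpG-rich coding subset. The SOX words were in 3.97% (3.19 to 4.92%) of members, 7.45% (7.03 to 7.89%) of one-direction promoter regions, 4.81% (4.36 to 5.32%) of the CpG-rich coding subset (difference -0.847 points, -1.77 to 0.212) and 14.1% (13.8 to 14.4%) of regions outside promoters. The octamer was in 1.83% (1.33 to 2.52%) of members, 1.22% (1.06 to 1.42%) of one-direction promoter regions, 0.867% (0.683 to 1.10%) of the CpG-rich coding subset (difference 0.964 points, 0.407 to 1.68) and 2.36% (2.24 to 2.48%) of regions outside promoters. Its share was above that of one-direction promoter regions in 10 autosomes and below it in 9, and that difference was not clear in the whole region (0.106 points, -0.528 to 0.907) or with transcripts of protein-coding genes alone (0.441 points, -0.213 to 1.45). Of the 36 members with the octamer, 7 were among the 21 histone regions described below. In the 1945 other members its share was 1.49% (1.04 to 2.13%). In all protein-coding promoter windows, TATAAA was in 12.7%, the SOX words in 7.60% and the octamer in 1.59%.

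**Figure D3:**
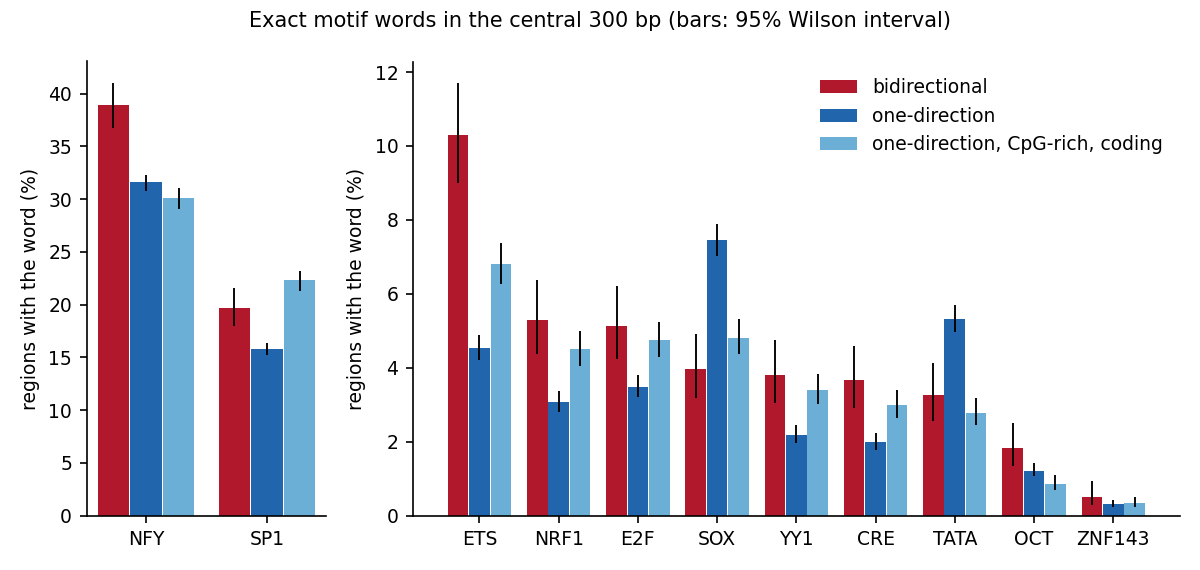
Share of regions with each exact word in the central 300 bp (y axis, %) for bidirectional (n = 1966), one-direction (n = 14373) and CpG-rich coding one-direction promoter regions (n = 7726), with 95% Wilson intervals as error bars. The ETS word, in 10.3% of members, and the CCAAT box, in 38.9%, stand above both comparison groups, while the TATA and SOX words are below the one-direction promoter regions.

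The words were not spread evenly over the members. In the 1612 regions with both starts, the sequence between the starts (325.7 kb in all) held the ETS word at 0.556 per kb, against 0.133 per kb in the 1102.9 kb of the same regions outside the starts, a ratio of 4.17. The ratio was 5.17 for NRF1, 4.70 for SP1, 3.99 for the CCAAT box and 6.68 for CRE. NRF1 words on the 2 strands can overlap, and such a site may be counted as 2 words. For the octamer the ratio was 9.85, from 32 words between the starts and 11 outside. Of the 32 words, 7 lay in histone regions, which are described below. For YY1 (0.923), E2F (1.14), TATA (1.19) and SOX (0.884) the density was about equal on both sides. The YY1 word had a place of its own. In the first 60 bp downstream of the paired starts it lay on the strand of the gene at 59 of 3932 starts (1.50%). On the opposite strand it lay at 9. For the nearest starts of one-direction promoter regions these numbers were 148 of 14373 (1.03%) and 19. In the CpG-rich coding subset they were 132 of 7726 (1.71%) and 12.

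**Figure D4:**
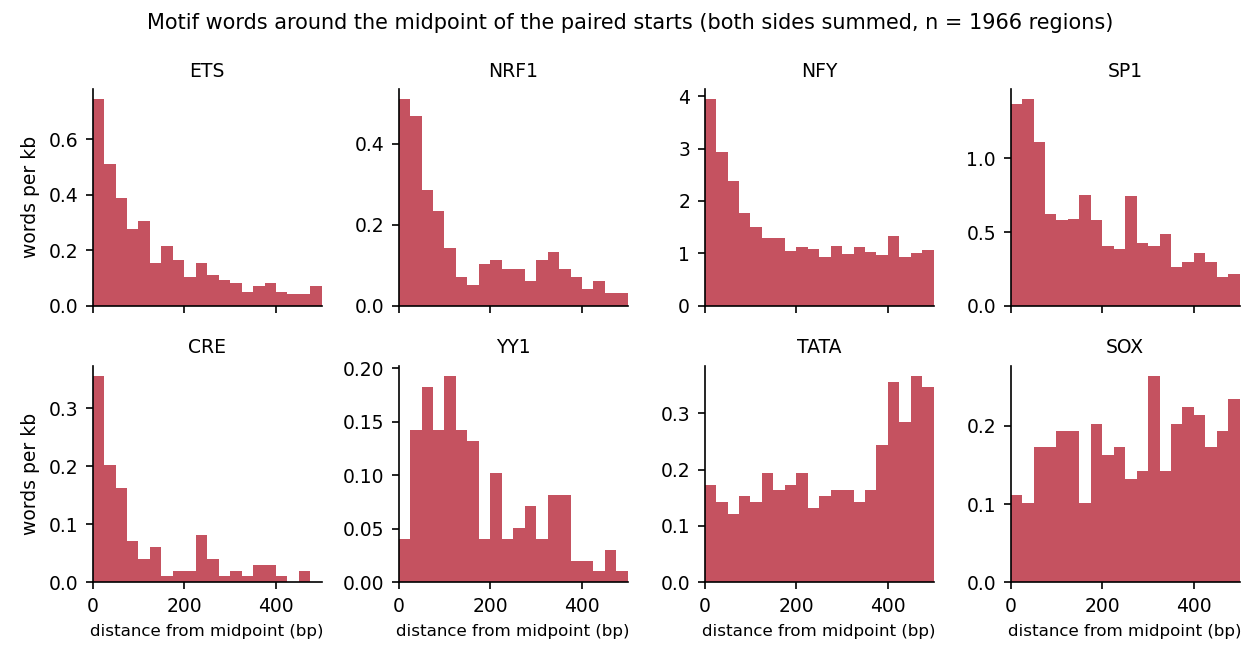
Density of 8 exact words (y axis, words per kb, scale differs between panels) by distance from the midpoint of the paired starts (x axis, bp, bins of 25 bp, both sides summed) over the 1966 bidirectional promoter regions. ETS, NRF1, CCAAT (NFY), SP1 and CRE words are densest near the midpoint, with ETS at 0.743 per kb in the first bin, whereas YY1 words are sparse there (0.0407 per kb) and densest further out.

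The ETS word was most frequent where the starts were closest. It was in 18.4% (15.1 to 22.2%) of members with starts up to 100 bp apart, 10.4% (8.20 to 13.2%) up to 200 bp, 10.3% (7.44 to 14.0%) up to 300 bp, 5.11% (3.07 to 8.39%) up to 500 bp and 3.08% (1.68 to 5.57%) above, each bin beginning where the one before ended. The CRE fell in the same way, from 6.21% (4.33 to 8.83%) to 0.615% (0.169 to 2.22%). All these shares are for the central window of 300 bp, which cannot hold both starts where they are over 300 bp apart. How far the window sets the fall was not tested. The CCAAT box had another order, with 28.8% (24.8 to 33.2%), 45.0% (41.0 to 49.0%) and 44.4% (39.2 to 49.8%) in the first 3 of these bins. By kind of pair, the ETS word was in 13.7% (134 of 980) of coding pairs and 6.28% (49 of 780) of coding and long noncoding pairs, whereas the CCAAT box was in 39.6% (36.6 to 42.7%) and 36.7% (33.4 to 40.1%). Of the 8 kinds of word for ETS, NRF1, YY1, SP1, NFY, CRE, E2F and ZNF143, 697 members (35.5%, 33.4 to 37.6%) had none, 879 had 1, 336 had 2 and 54 had 3 or more, while 49.6% (48.8 to 50.5%) of one-direction promoter regions and 42.9% (41.8 to 44.0%) of the CpG-rich coding subset had none.

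The textbook pairs show the range of arrangements, and 11 of their 12 regions contained both starts. Starts were closest at Surf1 and Surf2 (surfeit locus genes, the former a factor of cytochrome c oxidase assembly), 36 bp apart in a region of 540 bp at chr2:26916132-26916671. Hars and Hars2 (cytosolic and mitochondrial histidyl-tRNA synthetase) followed at 64 bp in a region of 890 bp, and Hspd1 and Hspe1 (the mitochondrial chaperonins HSP60 and HSP10) at 71 bp in a region of 702 bp at chr1:55087986-55088687. Wrap53 and Trp53 were 147 bp apart in the narrow region of 332 bp at chr11:69580220-69580551, which reached 35 bp into Wrap53. Mrps12 and Sars2 as well as Psmb9 (an immunoproteasome subunit) and Tap1 (a peptide transporter) were 188 bp apart, in regions of 743 and 994 bp. Ppat and Paics were 217 bp apart in 1145 bp, and Atm and Npat 307 bp apart in 915 bp. The starts were far apart at Mcm4 and Prkdc (466 bp in a region of 1088 bp), Gart and Son (554 bp in 1349 bp) and Brca1 and Nbr1 (699 bp in 1414 bp at chr11:101551685-101553098), and all these regions still spanned both. The exception was Emc8 (a subunit of an endoplasmic reticulum membrane complex) and Cox4i1 (a subunit of cytochrome c oxidase), 386 bp apart, whose region of 319 bp at chr8:120667693-120668011 held the start of Emc8 and ended 211 bp short of that of Cox4i1. Over their whole length, the CCAAT box was in 10 of the 12 regions, the ETS word in 3 and the NRF1 word in 4, while among all members these whole-region shares were 60.2%, 15.5% and 8.60%.

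**Figure D5:**
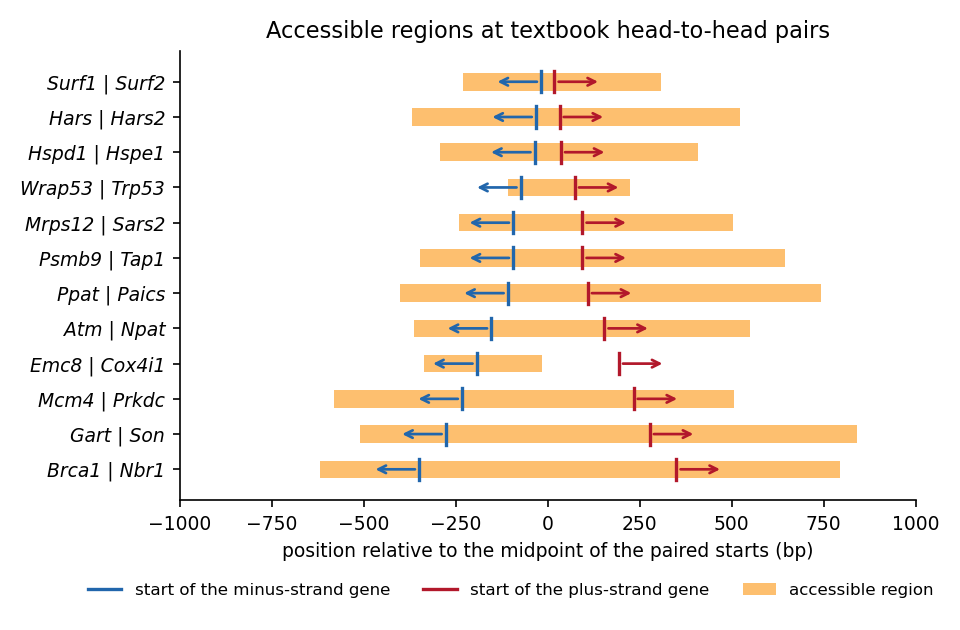
Accessible regions (bars) at the 12 textbook pairs with a member region, relative to the midpoint of the paired starts (x axis, bp), with the start and direction of the minus-strand gene (left name) and plus-strand gene (right name). All regions except that of Emc8 and Cox4i1 contain both starts, from 36 bp apart at Surf1 and Surf2 to 699 bp at Brca1 and Nbr1.

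Other pairs of the textbook list gave no member. Fen1 and Tmem258 had a region of 922 bp over both, but their nearest starts overlapped by 54 bp. Col4a1 and Col4a2 had a region of 924 bp and another of 368 bp, each centred in promoters of 1 strand. The region over Med22 and Rpl7a, of 1650 bp, was a member, but the nearest plus-strand start was that of the small nucleolar RNA Gm23969. Tcp1 (a chaperonin subunit) and Acat2 were not head to head, since their starts at chr17:12915701 and chr17:12960747 point towards each other. Tcp1 was paired at 37 bp with Mrpl18 (mitochondrial ribosome), and Acat2 had a one-direction promoter region of its own.

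The widest members reached beyond 2000 bp. The widest, of 2327 bp at chr4:95051129-95053455, lay at Jun (an AP-1 transcription factor) and the antisense RNA Junos, with starts 729 bp apart, and extended 1093 bp into Jun. It was followed by 2177 bp at Zbtb37 and the small nucleolar RNA Gm26224, 2060 bp at Snhg9 and Snora64 (a noncoding host transcript and a small nucleolar RNA), 2050 bp at the noncoding 9330154J02Rik and Tpbg (a membrane glycoprotein), and 2031 bp at the pseudogene Gm9987 and Sh3rf3. None of these 5 lay between 2 protein-coding genes. The members with the most ETS words were Pfdn6 (a prefoldin subunit) and Wdr46, with 4 in 634 bp, and Zfp787 and Gm36371, with 4 in 1459 bp. Tspan31 and A730063M14Rik, Slc25a11 (a mitochondrial carrier) and Rnf167 (a ubiquitin ligase), and Erh and Slc39a9 had 3 each.

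Gene groups differed in how often their promoter regions were bidirectional. Of the 12255 autosomal protein-coding genes with a region centred in a promoter, 2791 had a start paired in a member, which is 22.8% and serves as the background. Here every gene that shares a paired start was counted, not only the gene named for the pair, so that the number is slightly above the 2787 protein-coding genes of the pairs. Groups were formed by symbol, so that a few members of a family name are not subunits, and no group was tested.

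Genes of DNA metabolism and of mitochondria had shares above that background. The list for DNA repair and replication holds genes that are also in textbook pairs (Atm, Brca1, Mcm4, Prkdc and Trp53). It also holds Fen1 and Msh3, whose textbook pairs gave no member. Mcm4 and Prkdc share a region but count as 2 genes. Of the 62 DNA repair and replication genes with a promoter region, 27 were at a member (43.5%, 31.9 to 55.9%), among them Mcm7 (replicative helicase) with Ap4m1 in a region of 1577 bp, Brca1 with Nbr1, and Ogg1 (base excision repair) with the antisense Gm15492 in 1159 bp. Mitochondrial ribosomal proteins had 28 of 69 (40.6%, 29.8 to 52.4%), and 26 of the 28 had a coding partner. The widest were Mrps18b with Ppp1r10 (1340 bp), Mrpl2 with Klc4 (1211 bp), Mrpl51 with Ncapd2 (1153 bp) and Mrpl48 with Rab6a (1126 bp). Complex I of the respiratory chain, with its assembly factors, had 14 of 36 (38.9%, 24.8 to 55.1%), such as Ndufa11 with Vmac (1545 bp), Ndufs1 with Eef1b2 (1205 bp), Ndufa7 with Rps28 (1152 bp) and Ndufaf5 with Esf1 (1130 bp).

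Genes of transcription, folding and translation were also counted. Textbook pairs gave genes to these lists too, such as Hspd1 and Hspe1 to the chaperonins and Hars, Hars2 and Sars2 to the synthetases. The 26 chaperonin and heat shock genes at a member lay at 24 regions, and the 10 synthetases at 9. RNA polymerase subunits had 12 of 28 (42.9%, 26.5 to 60.9%), including Polr1d with Lnx2 (1506 bp), Polr3g with Mblac2 (1269 bp), Polr2b with Noa1 (1136 bp) and Polr3f with Dzank1 (984 bp). Chaperonins and heat shock proteins had 26 of 72 (36.1%, 26.0 to 47.6%), including Dnajb4 with Fubp1 (1457 bp), Cct7 with Pradc1 (1399 bp), Hsp90b1 with Ttc41 (1376 bp) and Cct8 with the noncoding B130034C11Rik (1277 bp). Aminoacyl-tRNA synthetases had 10 of 31 (32.3%, 18.6 to 49.9%), such as Yars with S100pbp (1356 bp), Ears2 with Ubfd1 (1074 bp) and Cars with the antisense Gm15579 (927 bp). Mediator had 8 of 25 (32.0%, 17.2 to 51.6%), with Med22 and Med16 opposite small RNAs (1650 and 1280 bp), Med19 opposite Tmx2 (993 bp) and Med31 opposite a noncoding transcript (941 bp). The intervals of the synthetases and of Mediator included the background.

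Cytosolic ribosomal proteins were at the background with 15 of 65 (23.1%, 14.5 to 34.6%), but their members were wide, with a median of 1047.5 bp over 16 regions. The widest were Rps25 with Trappc4 (1570 bp), Rps29 with the 7S RNA gene Rn7s1 (1502 bp), Rpl35a with Iqcg (1290 bp) and Rpl10a with a noncoding RNA (1182 bp). Proteasome subunits had 7 of 37 (18.9%, 9.48 to 34.2%), the widest at Psmd13 with Sirt3 (1017 bp), Psmb9 with Tap1, Psmc5 with Ftsj3 (922 bp) and Psma2 with Mrpl32 (839 bp), the last with 4 NRF1 words. Zinc finger proteins were below the background with 53 of 303 (17.5%, 13.6 to 22.2%), such as Zfp668 with Zfp646 (1834 bp), Zfp687 with a noncoding RNA (1599 bp), Zfp277 with Dock4 (1544 bp) and Zfp524 with Fiz1 (1536 bp). Solute carriers had 44 of 238 (18.5%, 14.1 to 23.9%), such as Slc30a7 with Extl2 (1657 bp), Slc35a5 with Atg3, Slc25a32 with Dcaf13 (1183 bp) and Slc3a2 with the noncoding Snhg1 (1175 bp).

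The replication-dependent histones stood apart in several measures. Of the 40 histone genes with a promoter region, 30 were at a member (95% Wilson interval 59.8 to 85.8%). They lay at 21 regions, 12 of which had a histone gene on both sides. The interval takes the genes as independent, which genes that share a region are not. These 21 regions had a median width of 573 bp (266 to 655 bp), a median distance of 302 bp (243 to 752 bp) between starts and a median GC content of 47.3% (44.0 to 52.3%), below the 65.0% of all members. In 11 of them an H2a gene pointed away from an H2b gene. The widest were at Hist1h2ba and Hist1h2aa (1065 bp), Hist1h2ak and Hist1h2bn (907 bp), Hist1h2bf and Hist1h2ad (855 bp), and Hist1h2bl and Hist1h2ai (848 bp). In the central window the octamer was present in 7 of 21 (33.3%, 17.2 to 54.6%), TATAAA in 11 (52.4%, 32.4 to 71.7%) and the CCAAT box in 17 (81.0%). The ETS and SP1 words were in none (up to 15.5% each, upper Wilson limit). Their shares in other members were 10.4% and 19.9%, so that the ETS count of 0 does not set the histones apart. In the 1945 other members the octamer was in 1.49% (1.04 to 2.13%) and TATAAA in 2.72% (2.09 to 3.55%). Many histone genes are similar to each other in sequence, and reads that mapped to several places were not kept.

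No gene of the pluripotency list had a start paired in a member. Of its 18 autosomal genes, which include Pou5f1 (the gene of OCT4), Sox2, Nanog, Klf4 and Esrrb, 13 had a promoter region, and 0 of 13 allows a share of up to 22.8% (upper Wilson limit). The same held for the lineage regulators, such as T, Sox1, Gata6 and Otx2, with 0 of 11 (up to 25.9%), and for olfactory receptors, of which 10 of 1128 had a promoter region and none a bidirectional one (up to 27.8%). These limits reach or include the background of 22.8%, so that the counts of 0 do not set the groups apart from it.

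Members were found on every autosome, from 47 on chromosome 18 to 174 on chromosome 7. Per Mb, chromosome 18 had the fewest (0.518) and chromosome 17 the most (1.32). The share of annotated pairs that had a member was even, with a mean of 58.5 ± 3.12% (SD over 19 autosomes) and a range from 53.4 to 64.4%. As a share of all regions of a chromosome, members ranged from 1.38% on chromosome 6, which had the most regions per Mb (44.1), to 3.64% on chromosome 17. A smaller share of members than of one-direction promoter regions had another region within 5000 bp. The nearest other region lay within 5000 bp for 41.4% (39.2 to 43.6%) of members, against 53.9% (53.1 to 54.7%) of one-direction promoter regions and 50.5% (49.4 to 51.6%) of the CpG-rich coding subset. Within 500 bp the shares were closer, at 20.1% (18.4 to 21.9%), 22.9% (22.2 to 23.6%) and 22.5% (21.5 to 23.4%). The median gap was 6484.5 bp (6073 to 6900 bp), against 4368 bp (4188 to 4533 bp) and 4927 bp (4807 to 5092 bp).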

How the data were processed

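Per the labels and methods, the authors aligned paired-end reads to mm10 with STAR (2.5.3a), kept unique reads, removed duplicates with Picard, called peaks per library with MACS2 (2.1.1.20160309), merged the peaks of the 12 ATAC-seq libraries and discarded those overlapping peaks of a ChIP-seq input. A shift for Tn5 insertion is not given in the sources used here. The deposited file holds coordinates alone, so populations and replicates were not compared, and the 4 ChIP-seq samples were not analysed here. No coordinate passed a GRCm38 chromosome end. All transcripts of GENCODE M21 gave starts. Python (3.11.15), numpy (2.4.6), scipy (1.17.1) and matplotlib (3.10.9) were used, and functions were tested on simulated data. Regions are not replicates, so no p-value is given. Members and lists were chosen with earlier results of these data known. Named pairs were the textbook pairs, those of pluripotency and lineage regulators, the 5 widest regions, the 5 with the most ETS words, pairs with 3 or more regions and up to 4 of the widest per gene group. Beyond the planned results, the ETS and histone sequences, the histone counts, the place of words within regions, the coding side, split pairs, genes by partner, repeats and neighbours were added with the data at hand.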

Additional observations from a re-analysis of the deposited data

How the results depend on the processing

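Alternative settings were computed for 34 results. Of 55 motif differences, 53 kept their sign, and in 39 the interval also stayed on the same side of 0 or still included it. Of 126 other values, 71 stayed within the 95% interval of the value in the report or, for the number of members, within 1.5 times. Left out of this count are 13 values of the members alone, which a change of comparison group does not touch. The cause of the changes below was not tested, unless the setting itself holds it, as a shorter or longer window does. Against CpG-rich one-direction coding promoters, the differences reversed for SP1 (-2.53 points) and median GC content (-2.00 points), and the intervals included 0 for TATA (0.473, of the other sign, although the share in members without a histone gene was 2.72% and that of the comparison 2.78%), the CpG ratio (0.00580), NRF1 (0.786), YY1 (0.424), CRE (0.659), E2F (0.387), SOX (-0.847) and ZNF143 (0.172, as against all one-direction promoter regions).

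With transcripts of protein-coding genes alone there were 984 members, with a median width of 858.5 bp and a median GC content of 64.0%, 87.2% contained both starts, 91.8% of annotated pairs had a region, and ETS and SOX words were in 13.6% and 2.85%. The difference in CpG ratio was 0.110, those for GC content (0.333), E2F (0.993), OCT (0.441), SP1 (1.50) and TATA (-1.09) had intervals including 0, and that for ZNF143 (0.444) no longer did. With 1 start per gene there were 1047 members, 85.7% with both starts, 77.6% of pairs had a region, and the width difference was 212 bp. With transcripts tagged basic, 78.4% of pairs had a region and the width difference was 220 bp. With promoters from 500 bp upstream, the median width was 833.5 bp and 91.4% contained both starts. With starts at most 500 bp apart, 92.6% contained both and 77.2% of pairs had a region. The median distance between the starts was 176 bp with protein-coding transcripts alone, 158 bp with 1 start per gene, 167 bp with promoters from 500 bp upstream and 159 bp with starts at most 500 bp apart. Without regions under 200 bp, 84.5% contained both and the width difference was 210 bp.

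In a window of 200 bp the shares were 7.43% (ETS), 3.51% (NRF1), 3.00% (YY1), 14.1% (SP1), 30.1% (NFY), 2.80% (CRE), 3.26% (E2F), 2.34% (TATA), 1.32% (OCT) and 2.70% (SOX), and the ZNF143 difference (0.254) excluded 0. In the whole region they were 15.5% (ETS), 8.60% (NRF1), 6.66% (YY1), 31.2% (SP1), 60.2% (NFY), 5.54% (CRE), 12.0% (E2F), 1.17% (ZNF143), 9.26% (TATA) and 11.9% (SOX). There the differences were larger for ETS (9.03 points), NFY (13.7), SP1 (8.25), E2F (5.55), YY1 (3.53) and NRF1 (3.57), the ZNF143 difference (0.530) excluded 0, those for TATA (-0.901) and OCT (0.106) did not, the median GC content was 62.6%, the CpG ratio 0.785 and its difference 0.119.

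No paired analysis was possible because the list has no values per library, and for the same reason no replicate was left out. The depth of the libraries, which limits how many weak regions are called and how wide they are, is unknown from the list. A start is an annotated one, and its use in these cells was not measured.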
